A study of Mus musculus with 16 samples.

Results

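The genes described here encode the fibrillins (Fbn1 and Fbn2), the latent TGF-beta binding proteins, or LTBPs (Ltbp1, Ltbp2, Ltbp3 and Ltbp4), and the microfibril-associated glycoproteins, or MAGPs (Mfap2 and Mfap5). They were taken by GENCODE symbol, and all 8 were found among the 52636 genes of the table and among the 17125 that had enough counts to be tested. RNA sequencing was done on whole descending thoracic aorta, the segment that descends inside the chest, from 2 inbred mouse strains. The 4 groups, of 4 libraries each, were C57BL/6J with hypertension induced by angiotensin II (AngII), C57BL/6J control, 129S6/SvEvTac with AngII-induced hypertension and 129S6/SvEvTac control. AngII is the peptide of the renin system that narrows arteries. The sources used here do not give its dose or duration, what the controls received, or the age and sex of the mice. No label says that each library is a separate animal, so a p-value here reflects only how far these samples spread, in part perhaps for technical reasons.

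Fibrillins are long glycoproteins that polymerise into microfibrils, the scaffold on which elastin is laid down in the elastic sheets of the aortic wall. LTBPs sit on these microfibrils, and most of them hold TGF-beta, a growth factor that drives matrix production, in an inactive complex in the matrix until it is released. MAGPs are small proteins that bind fibrillin along the microfibril. In humans, mutations in FBN1 cause Marfan syndrome, in which the aorta widens and tears.

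Library totals ran from 42116120 to 61381134 counts in 15 libraries and reached 121573945 in 129S6/SvEvTac AngII replicate 5. Smooth muscle markers marked the tissue as labelled. Acta2, smooth muscle actin, averaged 9294 ± 3140 CPM in C57BL/6J AngII, 17960 ± 692 in C57BL/6J control, 18190 ± 2215 in 129S6/SvEvTac AngII and 17390 ± 885 in 129S6/SvEvTac control aortas (SD, n = 4 each). CPM are counts scaled to a common library total after TMM adjustment. On the first principal component, with 36.1% of the variance, the 4 libraries of C57BL/6J AngII were separate from the other 12, replicate 3 being the nearest to them. Replicate 1 of that group had the highest adipocyte marker sum, 3071 CPM over 8 genes, and 129S6/SvEvTac AngII replicate 5 had the highest skeletal and cardiac muscle marker sum, 357.2 CPM over 8 genes.

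AngII changed most of the family in C57BL/6J aortas. There 7 of the 8 genes passed the test (edgeR's quasi-likelihood test, Benjamini-Hochberg adjusted p below 0.05 over all 17125 genes), against 38.9% of all genes tested. Fbn2 passed the filter on low counts only through AngII libraries, and without it 6 of the other 7 were called. Fbn1, Fbn2, Ltbp2, Ltbp3, Mfap2 and Mfap5 were higher with AngII, against 21.8% of all genes, and Ltbp4 was lower, against 17.1% of all genes. In 129S6/SvEvTac aortas 5 of the 8 passed, against 12.2% of all genes, and all 5 were higher with AngII (Fbn1, Ltbp1, Ltbp2, Ltbp3 and Mfap5), against 7.71% of all genes. None was called lower there, against 4.47% of all genes. The family was chosen with earlier results of these data known, so these counts, and those between the strains below, are a description beside the shares. The median log2 fold change over the family without Fbn2 was 0.80 in C57BL/6J and 0.75 in 129S6/SvEvTac, where the median over all genes tested was 0.01 and 0.00. Leaving out both C57BL/6J AngII replicate 1 and 129S6/SvEvTac AngII replicate 5 again gave 7 and 5 calls.

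**Figure D1:**
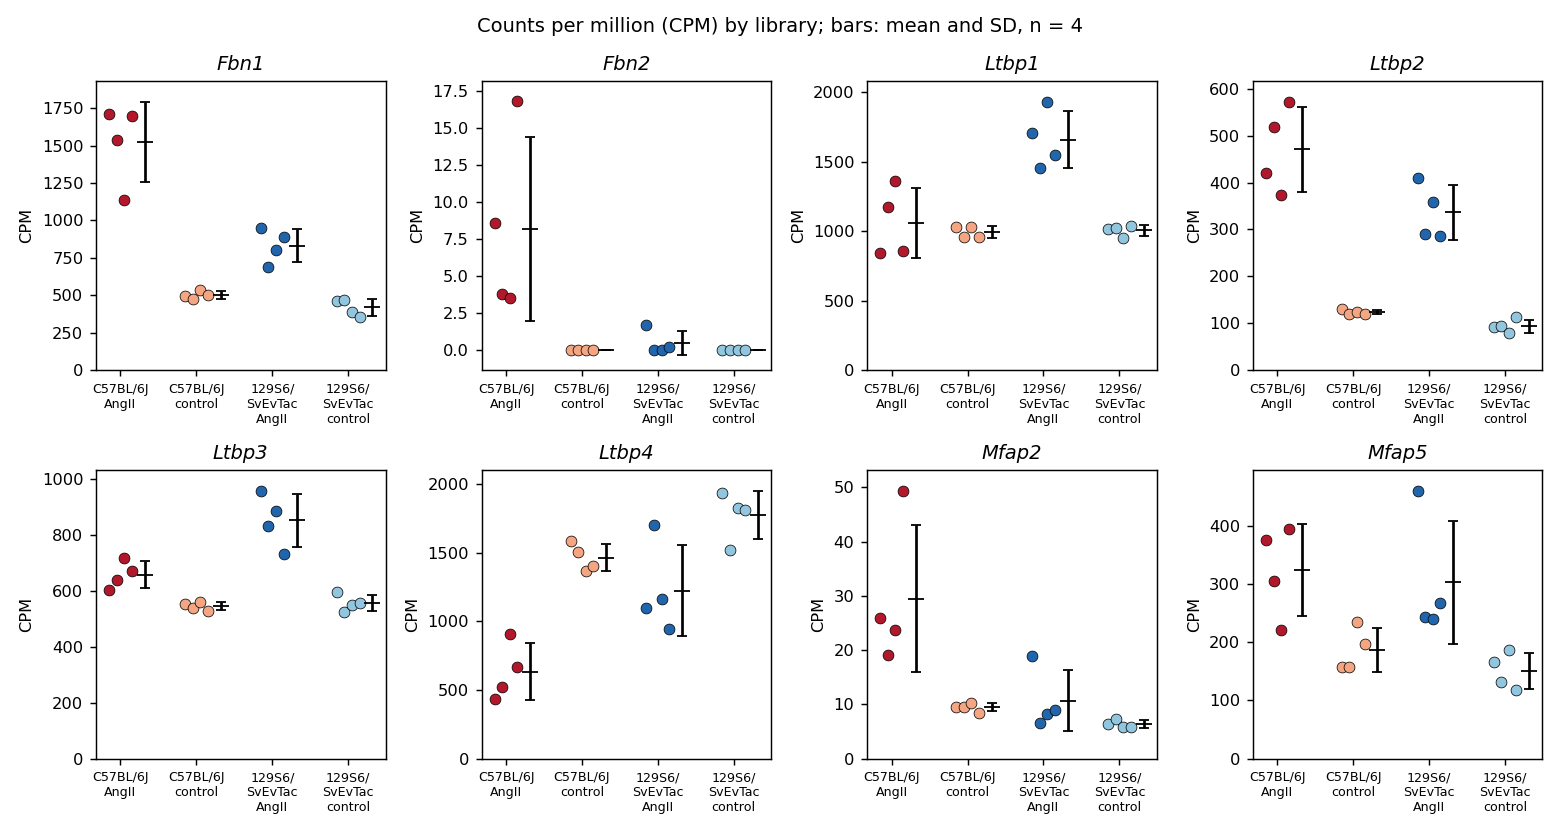
Level of each gene in CPM (linear axis, a separate scale for each gene) in every library, by strain and treatment; points are libraries and bars the mean and SD of 4. Fbn1 and Ltbp2 were higher in every AngII library than in every control library of the same strain, Ltbp4 was lower in every C57BL/6J AngII library than in every control library, and Fbn2 was listed at 0 in all 8 control libraries.

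Fbn1 encodes fibrillin 1, the main fibrillin of adult microfibrils. It lies on chromosome 2 at positions 125300594 to 125507993 (GRCm38, minus strand). In replicates 1, 2, 3 and 5 of C57BL/6J AngII it had 1714, 1539, 1139 and 1697 CPM, against 491.8, 471.8, 536.5 and 502.5 CPM in C57BL/6J control replicates 1, 2, 3 and 5. All 4 AngII libraries were above all controls, with replicate 3 the lowest of them. In 129S6/SvEvTac AngII replicates 1, 2, 4 and 5 it had 946.4, 688.1, 803.5 and 887.8 CPM, against 463.1, 467.7, 384.4 and 357.4 CPM in 129S6/SvEvTac control replicates 1 to 4. These groups did not overlap either. Fbn1 rose 3.04-fold in C57BL/6J (log2 fold change 1.60 ± 0.14 SE, adjusted p = 1.45e-06) and 1.99-fold in 129S6/SvEvTac (0.99 ± 0.14, adjusted p = 0.000325). The difference between the strains' effects was 0.61 ± 0.19 as log2 (adjusted p = 0.0553). That difference of Fbn1 passed the threshold in 3 of the 16 fits without 1 library: without C57BL/6J AngII replicate 3 (0.76, adjusted p = 0.00522), 129S6/SvEvTac AngII replicate 1 (0.70, adjusted p = 0.0470) or 129S6/SvEvTac control replicate 4 (0.70, adjusted p = 0.0445). It also passed in 4 of 9 other alternatives: DESeq2 (adjusted p = 0.0170), the replicate block (0.0488), the filter of 1 CPM (0.0490) and library size only (0.0498). With an adipocyte score as a covariate it was 0.40 (adjusted p = 0.195). Of the exon length of Fbn1, 20.1% is shared with Gm9913 on the opposite strand. Since strandedness is not given, reads of the pair cannot be told apart, and Gm9913 itself was listed at 0.317 to 1.17 CPM.

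Fbn2 encodes fibrillin 2, a fibrillin known mainly from developing tissue, on chromosome 18 at positions 58008623 to 58210487 (minus strand). It had 428, 176, 207 and 1003 counts in C57BL/6J AngII replicates 1, 2, 3 and 5 (8.61, 3.81, 3.55 and 16.9 CPM) and was listed at 0 in all 4 C57BL/6J controls. In 129S6/SvEvTac AngII it had 75 counts in replicate 1 and 24 in replicate 5, was listed at 0 in replicates 2 and 4, and was listed at 0 in all 4 129S6/SvEvTac controls. Every C57BL/6J AngII library thus held more counts than any other library of the series. Fbn2 was at least 581-fold higher in C57BL/6J AngII and at least 25.7-fold higher in 129S6/SvEvTac AngII than in the controls of each strain, setting the controls at a floor of 3 counts over the 4 libraries of the group. These limits rest largely on 1 library each: without C57BL/6J AngII replicate 5 the first is 360.3-fold, and without 129S6/SvEvTac AngII replicate 1 the second is 7.61-fold. The floor covers counting error only, and the counts are estimates. Low values of long genes do occur in the table: its 1527 protein-coding genes with over 10000 exon bases had 1251 values from 1 to 23 counts, beside 2168 zeros. Fbn2 passed the filter on low counts only through AngII libraries, so its call in C57BL/6J (adjusted p = 0.00293) is no independent support. In 129S6/SvEvTac the adjusted p was 0.0886, and it was 0.190 without replicate 1. Even in C57BL/6J AngII, Fbn2 made up only 0.468 ± 0.306% of fibrillin CPM per kb of exon (SD, n = 4), the rest being Fbn1. In 129S6/SvEvTac AngII the share was 0.0464 ± 0.0789% (SD, n = 4).

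Ltbp1 encodes LTBP-1, which binds latent TGF-beta covalently. The gene spans positions 75005568 to 75392512 of chromosome 17 (plus strand). In C57BL/6J AngII replicates 1, 2, 3 and 5 it had 840.8, 1171, 1359 and 859.3 CPM, against 1030, 957.9, 1026 and 956.4 CPM in the controls. AngII libraries lay on both sides of the controls, replicates 1 and 5 below and 2 and 3 above, and the log2 fold change was 0.09 ± 0.14 (adjusted p = 0.627). In 129S6/SvEvTac AngII it had 1704, 1456, 1926 and 1546 CPM, against 1018, 1022, 946.4 and 1033 CPM in the controls. Here every AngII library was above every control, and Ltbp1 rose 1.65-fold (log2 fold change 0.72 ± 0.14, adjusted p = 0.00328). The effect in C57BL/6J was lower than that in 129S6/SvEvTac, with a log2 difference of -0.63 ± 0.19 (adjusted p = 0.0498). That made Ltbp1 the 1 gene of the 7 with an estimate that passed the test of the difference, against 9.96% of all genes (5.34% with a higher effect in C57BL/6J and 4.62% with a lower one). This call lies at the threshold: it was lost in 13 of the 16 fits that left out 1 library, controls of both strains included, and with library size only (adjusted p = 0.0632), with no filter (0.0654), with an adipocyte score as a covariate (0.133) and without both C57BL/6J AngII replicate 1 and 129S6/SvEvTac AngII replicate 5 (0.0903). Over the 16 fits the log2 difference ran from -0.75 to -0.51 and the adjusted p from 0.00606 to 0.109.

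RefSeq (GRCm38.p6) places 2 transcription starts in Ltbp1, 173252 bases apart, and the gene counts pool the transcripts of both. The 250 bases before each start are shown to compare them, 5′ to 3′ on the plus strand, because both feed the 1 count of Ltbp1. Capitals mark matches to the SMAD element CAGACA, the short sequence bound by the SMAD factors that carry TGF-beta signals, read on either strand.
Ltbp1 upstream start, chr17:75005279-75005528: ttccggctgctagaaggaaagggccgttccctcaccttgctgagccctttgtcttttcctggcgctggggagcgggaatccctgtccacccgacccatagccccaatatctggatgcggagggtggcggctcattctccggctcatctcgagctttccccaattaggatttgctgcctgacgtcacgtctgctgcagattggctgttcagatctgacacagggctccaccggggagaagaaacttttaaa
Ltbp1 downstream start, chr17:75178531-75178780: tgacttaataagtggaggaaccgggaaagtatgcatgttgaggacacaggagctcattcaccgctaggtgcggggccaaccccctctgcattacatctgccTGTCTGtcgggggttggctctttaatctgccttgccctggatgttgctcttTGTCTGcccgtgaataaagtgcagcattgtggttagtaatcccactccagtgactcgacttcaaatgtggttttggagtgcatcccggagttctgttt
The window of the downstream start held 2 matches, at -149 to -144 and -98 to -93 from the start, both as the reverse complement, and the window of the upstream start held none. Of 32851 promoter windows of this length in the same table, 17.1% held at least 1 such match. Neither window held a match to the AP-1 element TGANTCA, which 6.75% of all windows held, or to the TEAD element CATTCC, which 12.6% of all windows held. Neither held the TATA box TATAAA (12.4% of all windows) or the CArG box bound by serum response factor (1.47%). The search covered the 10 windows of the 6 family genes with an entry. Outside Ltbp1, only 1 window of Mfap2 held matches, SMAD at -216 to -211 and TEAD at -176 to -171. A match is a description of these letters and not a site.

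Ltbp2 encodes LTBP-2, which binds fibrillin but, unlike its relatives, does not bind latent TGF-beta. It lies on chromosome 12 at positions 84783212 to 84876532 (minus strand). It had 419.6, 518.0, 374.5 and 571.3 CPM in C57BL/6J AngII, against 130.3, 120.1, 124.0 and 119.7 CPM in C57BL/6J controls. It had 410.4, 290.6, 358.4 and 286.4 CPM in 129S6/SvEvTac AngII, against 90.7, 92.8, 78.6 and 112.4 CPM in 129S6/SvEvTac controls. In both strains all AngII libraries were far above all controls. Ltbp2 rose 3.81-fold in C57BL/6J (log2 fold change 1.93 ± 0.15, adjusted p = 8.63e-07) and 3.59-fold in 129S6/SvEvTac (1.85 ± 0.15, adjusted p = 5.56e-06). The difference between the 2 effects was 0.09 ± 0.21 as log2 (adjusted p = 0.847). Of its exon length, 9.34% is shared with D030025P21Rik on the opposite strand, which was listed at 0.333 to 1.78 CPM.

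Ltbp3 encodes LTBP-3, another carrier of latent TGF-beta, on chromosome 19 at positions 5740904 to 5758532 (plus strand). It had 604.5, 640.0, 719.8 and 670.9 CPM in C57BL/6J AngII, against 553.5, 540.1, 562.3 and 528.9 CPM in C57BL/6J controls. The groups did not overlap, but the rise was small, 1.21-fold (log2 fold change 0.27 ± 0.08, adjusted p = 0.0190). That call was lost without C57BL/6J control replicate 2 (adjusted p = 0.0664) or replicate 5 (0.0666), with scaling by library size only (0.18, adjusted p = 0.119), and with only the 2 groups compared in the fit (0.26, adjusted p = 0.0574). It had 957.9, 834.7, 886.1 and 734.2 CPM in 129S6/SvEvTac AngII, against 595.3, 525.7, 549.3 and 557.8 CPM in 129S6/SvEvTac controls. Here Ltbp3 rose 1.53-fold (log2 fold change 0.62 ± 0.08, adjusted p = 0.000325), with no overlap. The difference between the effects, -0.34 ± 0.12, had an adjusted p of 0.0800.

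Ltbp4 encodes LTBP-4, which binds TGF-beta only weakly and is known in mice for its part in elastic fibre assembly with fibulins. It lies on chromosome 7 at positions 27305136 to 27337692 (minus strand). It had 435.0, 523.2, 909.9 and 667.2 CPM in C57BL/6J AngII, against 1582, 1501, 1368 and 1405 CPM in C57BL/6J controls. All 4 AngII libraries were below all controls, and Ltbp4 was 2.31-fold lower (log2 fold change -1.21 ± 0.21, adjusted p = 0.000314). It had 1094, 1698, 1159 and 941.0 CPM in 129S6/SvEvTac AngII, against 1933, 1522, 1826 and 1807 CPM in 129S6/SvEvTac controls. AngII replicate 2 lay above the lowest control, so these groups overlapped (log2 fold change -0.54 ± 0.20, adjusted p = 0.105). Without that library the log2 fold change was -0.75 (adjusted p = 0.0283). The effects differed by -0.67 ± 0.29 (adjusted p = 0.155).
RefSeq gives Ltbp4 3 starts within 3964 bases. One window before a start, on the minus strand, is shown because Ltbp4 was the only gene of the 8 to fall in a called comparison with AngII; 79.2% of its bases are G or C, and it has no capitals because none of the 5 motifs named above matched.
Ltbp4, chr7:27333664-27333913: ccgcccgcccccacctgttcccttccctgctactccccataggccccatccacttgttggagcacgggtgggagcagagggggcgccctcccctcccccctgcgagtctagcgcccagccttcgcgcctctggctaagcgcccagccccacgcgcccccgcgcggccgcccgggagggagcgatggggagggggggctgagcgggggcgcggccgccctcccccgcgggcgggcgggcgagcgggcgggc

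The LTBP genes also shifted against each other. Per kb of exon, Ltbp4 made up 29.5 ± 5.19% of the LTBP CPM in C57BL/6J AngII and 57.4 ± 1.69% in C57BL/6J control aortas (SD, n = 4 each). The share was 39.1 ± 7.20% in 129S6/SvEvTac AngII and 62.1 ± 2.34% in 129S6/SvEvTac control aortas (SD, n = 4 each). Ltbp2 made up 18.0 ± 4.31% in C57BL/6J AngII and 3.83 ± 0.097% in C57BL/6J control, and 8.61 ± 1.48% in 129S6/SvEvTac AngII and 2.60 ± 0.404% in 129S6/SvEvTac control aortas. Ltbp4 was thus the leading LTBP in both control groups, and its share was lower in every AngII library than in every control of its strain. The sum of the 4 LTBPs was 327.2 ± 52.7 CPM per kb in C57BL/6J AngII and 394.7 ± 17.1 in C57BL/6J control, and 479.5 ± 51.9 in 129S6/SvEvTac AngII and 441.0 ± 29.7 in 129S6/SvEvTac control aortas. The median ratio of Ltbp2 to Ltbp4 counts was 0.909 in C57BL/6J AngII and 0.0838 in C57BL/6J control libraries. In 129S6/SvEvTac it was 0.307 with AngII and 0.0535 in control libraries. The log2 ratio differed by 3.17 and by 2.41 in the 2 strains (exact permutation test, two-sided, p = 0.0286 in each, the smallest p that 4 against 4 allows; 0.0429 adjusted over 6 ratio tests), and it was higher in all 4 AngII libraries of each strain. In C57BL/6J, Ltbp2 lay above and Ltbp4 below every control, so the separation of their ratio followed from the 2 genes' own values. The ratio test there restates the results of the single genes and is no added support. In 129S6/SvEvTac, Ltbp2 also lay far above every control, while Ltbp4 on its own was not called. The ratio test in 129S6/SvEvTac thus largely reads the rise of Ltbp2 again and is no added support either.

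**Figure D2:**
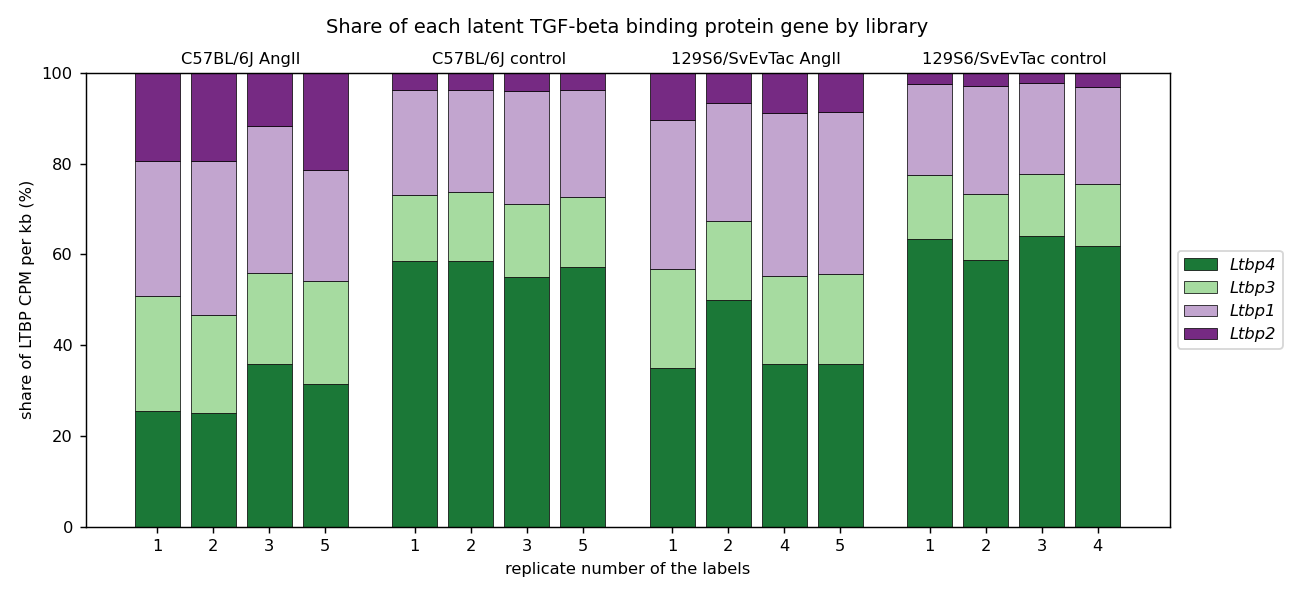
Share of each LTBP gene in the summed LTBP level (CPM per kb of exon, percent) in every library, in 4 blocks by group, with the replicate number of the labels below each bar. Ltbp4 made up 25.0 to 35.8% in C57BL/6J AngII libraries and 55.0 to 58.6% in C57BL/6J controls, and 34.9 to 49.9% in 129S6/SvEvTac AngII libraries and 58.8 to 64.0% in 129S6/SvEvTac controls.

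Mfap2 encodes MAGP-1, on chromosome 4 at positions 141010418 to 141015984 (plus strand). It had 25.9, 19.1, 23.7 and 49.3 CPM in C57BL/6J AngII, against 9.57, 9.54, 10.3 and 8.47 CPM in C57BL/6J controls. All AngII libraries were above all controls, replicate 5 far above the rest, and Mfap2 rose 3.11-fold (log2 fold change 1.64 ± 0.31, adjusted p = 0.000740). It had 19.0, 6.61, 8.21 and 8.93 CPM in 129S6/SvEvTac AngII, against 6.4, 7.39, 5.82 and 5.79 CPM in 129S6/SvEvTac controls. There the groups overlapped and replicate 1 stood above the others (log2 fold change 0.75 ± 0.31, adjusted p = 0.138). Without that library it was 0.30 (adjusted p = 0.543), and the difference between the strains' effects, 0.89 ± 0.43 with all libraries (adjusted p = 0.216), was then 1.35 (adjusted p = 0.0341).

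Mfap5 encodes MAGP-2, on chromosome 6 at positions 122505845 to 122529290 (plus strand). It had 375.4, 304.7, 220.4 and 395.0 CPM in C57BL/6J AngII, against 157.2, 157.1, 235.4 and 196.8 CPM in C57BL/6J controls. AngII replicate 3 lay below control replicate 3, so the groups overlapped, and the rise was 1.74-fold (log2 fold change 0.80 ± 0.23, adjusted p = 0.0142). The call was lost without C57BL/6J control replicate 2 (0.70, adjusted p = 0.0525) and with an adipocyte score as a covariate (0.69, adjusted p = 0.151). It had 459.6, 244.2, 240.6 and 266.7 CPM in 129S6/SvEvTac AngII, against 166.7, 131.5, 186.7 and 118.6 CPM in 129S6/SvEvTac controls. These groups did not overlap, and Mfap5 rose 2.01-fold (log2 fold change 1.0 ± 0.24, adjusted p = 0.0120). Without AngII replicate 1, which stood above the others, the log2 fold change was 0.71 (adjusted p = 0.0463). The effects of the 2 strains differed by -0.21 ± 0.33 (adjusted p = 0.752). The median Mfap5 to Mfap2 count ratio was 11.6 in C57BL/6J AngII and 19.4 in C57BL/6J control libraries, a log2 difference of -0.76 with no overlap (exact permutation test, two-sided, p = 0.0286, 0.0429 adjusted over 6). In 129S6/SvEvTac it was 29.5 with AngII and 23.02 in control libraries, a log2 difference of 0.34 (exact p = 0.200, 0.240 adjusted).

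Per kb of exon, the order of the genes was set side by side in the 4 groups. In C57BL/6J AngII aortas Fbn1 had the highest mean, 125.5 ± 22.1 CPM per kb, within 1 SD of Ltbp4, and in replicate 3 Fbn1 lay below both Ltbp4 and Ltbp1. Ltbp1 (98.9 ± 23.5), Ltbp4 (98.1 ± 32.1) and Mfap5 (90.2 ± 22.1) followed within 1 SD of each other, then Ltbp3 (72.6 ± 5.39, within 1 SD of Mfap5), Ltbp2 (57.5 ± 10.98), Mfap2 (24.4 ± 11.2) and Fbn2 (0.621 ± 0.470). In C57BL/6J control aortas the order was Ltbp4 (226.5 ± 14.99 CPM per kb), Ltbp1 (92.8 ± 3.82), Ltbp3 (60.2 ± 1.62), Mfap5 (52.0 ± 10.5), Fbn1 (41.3 ± 2.23), Ltbp2 (15.1 ± 0.599) and Mfap2 (7.82 ± 0.631). Ltbp3 and Mfap5 lay within 1 SD of each other there. In 129S6/SvEvTac AngII aortas Ltbp4 (189.2 ± 51.0 CPM per kb) and Ltbp1 (155.1 ± 19.3) led within 1 SD. Ltbp3 (94.1 ± 10.4), Mfap5 (84.4 ± 29.3) and Fbn1 (68.6 ± 9.25) followed, all within 1 SD of Mfap5, then Ltbp2 (41.1 ± 7.25), Mfap2 (8.82 ± 4.63) and Fbn2 (0.0360 ± 0.0618). The order of the 7 genes was the same in 129S6/SvEvTac AngII, 129S6/SvEvTac control and C57BL/6J control aortas. The 129S6/SvEvTac controls were led by Ltbp4 at 274.2 ± 27.1 CPM per kb, with Fbn1 at 34.5 ± 4.59, within 1 SD of Mfap5 (42.04 ± 8.74).

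The strains differed in the family with AngII. In AngII aortas, 7 of the 8 genes differed between C57BL/6J and 129S6/SvEvTac, against 31.3% of all genes tested. Fbn1, Fbn2, Ltbp2 and Mfap2 were higher in C57BL/6J, against 16.8% of all genes, and Ltbp1, Ltbp3 and Ltbp4 were lower, against 14.6% of all genes. Fbn2 was tested only through its AngII libraries, and without it 6 of the other 7 were called. Fbn1 averaged 1522 ± 267 CPM in C57BL/6J AngII and 831.5 ± 112 CPM in 129S6/SvEvTac AngII (SD, n = 4 each), a log2 difference of 0.87 ± 0.14 (adjusted p = 0.000206). Mfap2 differed by 1.47 ± 0.31 (adjusted p = 0.00215), with all 4 C57BL/6J libraries above all 4 of 129S6/SvEvTac. Ltbp1, Ltbp3 and Ltbp4 were each lower in C57BL/6J with no overlap. The nearest libraries of C57BL/6J AngII and 129S6/SvEvTac AngII were close for Ltbp3 (719.8 and 734.2 CPM) and Ltbp4 (909.9 and 941.0 CPM). The share of all genes tested that separate in this way was not counted, so the lack of overlap is a description only. Ltbp1 averaged 1057 ± 252 CPM in C57BL/6J AngII and 1658 ± 206 CPM in 129S6/SvEvTac AngII, a log2 difference of -0.65 ± 0.14 (adjusted p = 0.00204). The log2 difference was -0.37 ± 0.08 for Ltbp3 (adjusted p = 0.00343) and -0.95 ± 0.20 for Ltbp4 (adjusted p = 0.00248). Ltbp2 was 0.49 ± 0.15 higher in C57BL/6J AngII (edgeR's quasi-likelihood test, adjusted p = 0.0191), but its groups overlapped. The Ltbp2 call was lost in 4 of the 16 fits without 1 library (adjusted p up to 0.0683) and in 2 of 10 other alternatives (up to 0.0887). The Fbn2 call (adjusted p = 0.0385) was lost in 6 of the 16 fits (up to 0.110) and in 4 of the 10 alternatives (up to 0.166, with DESeq2). The Ltbp3 call was lost in 1 of the 10 alternatives (0.0507). Mfap5 differed by 0.10 ± 0.23 (adjusted p = 0.796). Without both C57BL/6J AngII replicate 1 and 129S6/SvEvTac AngII replicate 5, 5 of the 8 were called, Fbn2 (adjusted p = 0.133) and Ltbp2 (adjusted p = 0.0502) being lost.

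In control aortas none of the 7 genes with an estimate differed between strains (edgeR's quasi-likelihood test), against 10.4% of all genes (5.35% higher and 5.06% lower in C57BL/6J). At an unadjusted p below 0.05 there was 1, Ltbp2, and DESeq2 called 0. Fbn1 averaged 500.6 ± 27.1 CPM in control aortas of C57BL/6J and 418.2 ± 55.7 CPM in those of 129S6/SvEvTac (log2 difference 0.26 ± 0.14, adjusted p = 0.278). Ltbp2 averaged 123.5 ± 4.90 CPM in control aortas of C57BL/6J and 93.6 ± 13.99 CPM in those of 129S6/SvEvTac (0.40 ± 0.15, adjusted p = 0.102). Mfap2 averaged 9.47 ± 0.764 CPM in control aortas of C57BL/6J and 6.35 ± 0.749 CPM in those of 129S6/SvEvTac (0.58 ± 0.31, adjusted p = 0.298). For Fbn1, Ltbp2 and Mfap2 the C57BL/6J controls were all above the 129S6/SvEvTac controls, while the groups overlapped for Ltbp1, Ltbp3, Ltbp4 and Mfap5. How many of all genes tested separate in this way was not counted, so this is a description only. A fit of the 2 control groups alone called Ltbp2 (adjusted p = 0.0204), Ltbp4 (-0.28, adjusted p = 0.0401) and Mfap2 (adjusted p = 0.00789). The 5 comparisons share libraries with each other, and their counts are not independent.

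**Figure D3:**
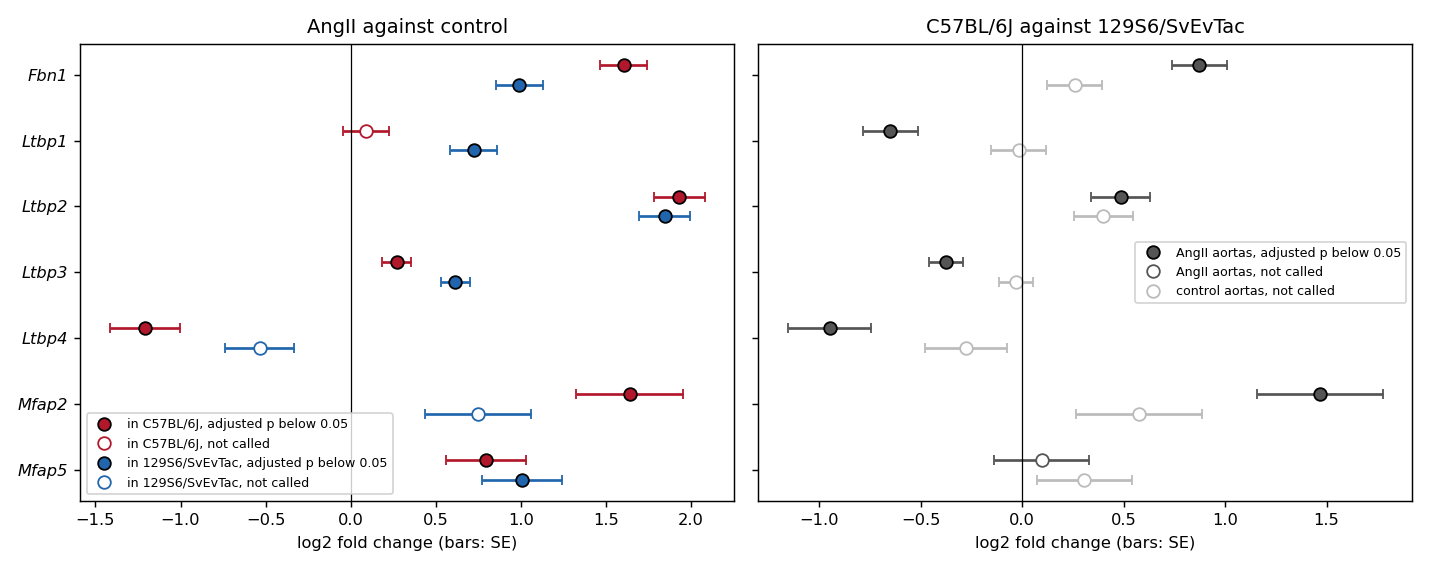
Log2 fold change (bars: SE) of each gene but Fbn2, with AngII against control in each strain on the left and C57BL/6J against 129S6/SvEvTac in AngII and control aortas on the right; filled points passed an adjusted p of 0.05 over all genes tested. With AngII, Ltbp4 is the gene left of 0 in both strains (-1.21 in C57BL/6J, -0.54 in 129S6/SvEvTac, the second not passing), and no point of the control aortas is filled.

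Markers of the cell types in the wall moved as well. The summed CPM of 8 smooth muscle markers was 12600 to 29720 in C57BL/6J AngII and 39080 to 42340 in C57BL/6J control libraries, with 0 of them higher and 7 lower by test. The sum was 36660 to 46090 in 129S6/SvEvTac AngII and 38380 to 41410 in 129S6/SvEvTac control libraries, with none called. Among C57BL/6J AngII libraries, replicate 3 had the highest smooth muscle sum and the highest Ltbp1 and Ltbp4, and replicate 1 the lowest of all 3. The macrophage sum was 918.2 to 1682 CPM in C57BL/6J AngII and 294.9 to 408.9 CPM in C57BL/6J control libraries (8 of 8 markers higher), and 200 to 379.8 CPM in 129S6/SvEvTac AngII and 151.7 to 278.0 CPM in 129S6/SvEvTac control libraries (none called). The adventitial fibroblast sum, from cells of the outer wall that make its matrix, was 2421 to 3228 CPM in C57BL/6J AngII and 2626 to 3074 CPM in C57BL/6J control libraries (3 of 8 higher and 2 lower). It was 1897 to 2525 CPM in 129S6/SvEvTac AngII and 1924 to 2632 CPM in 129S6/SvEvTac control libraries (1 of 8 higher). The part of any of these cell types in the family's changes was not tested. In bulk tissue, fewer cells of a type and less RNA per cell cannot be told apart.

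Other marker lists gave smaller or more scattered sums. The adipocyte sum was 139.6 to 3071 CPM in C57BL/6J AngII and 89.1 to 247.7 CPM in C57BL/6J control libraries (7 of 8 higher), and 246.3 to 1100 CPM in 129S6/SvEvTac AngII and 114.7 to 531.6 CPM in 129S6/SvEvTac control libraries (none called). The cartilage sum, in which Acan is also made by smooth muscle, was 277.4 to 539.9 CPM in C57BL/6J AngII and 110.1 to 141.0 CPM in C57BL/6J control libraries (3 of 5 tested higher). It was 109.7 to 166.5 CPM in 129S6/SvEvTac AngII and 58.9 to 93.3 CPM in 129S6/SvEvTac control libraries (2 of 5 higher). Acan, Col2a1, Sox9, Comp and Col9a1 each had a higher mean with AngII than in controls in both strains. Matn1 was listed at 0 in all but 1 library and was not tested. Endothelial markers summed to 894.5 to 1148 CPM in C57BL/6J AngII and 1038 to 1302 CPM in C57BL/6J control libraries (2 of 8 higher), and to 838.4 to 2512 CPM in 129S6/SvEvTac AngII and 733.0 to 1179 CPM in 129S6/SvEvTac control libraries (3 of 8 higher). The nerve sum was 17.8 to 47.7 CPM in C57BL/6J AngII and 10.1 to 15.3 CPM in C57BL/6J control libraries (2 of 5 tested higher). It was 16.6 to 22.4 CPM in 129S6/SvEvTac AngII and 15.7 to 21.99 CPM in 129S6/SvEvTac control libraries (none called). Pmp2 was listed at 0 throughout and not tested, and 86.9% of its exon length is shared with Gm37389 on the same strand. Skeletal and cardiac muscle summed to 13.8 to 119.3 CPM in C57BL/6J AngII and 13.3 to 22.3 CPM in C57BL/6J control libraries. They summed to 26.6 to 357.2 CPM in 129S6/SvEvTac AngII and 13.6 to 194.1 CPM in 129S6/SvEvTac control libraries, with none of 7 called in either strain. Myh6 alone reached 82.1 CPM in C57BL/6J AngII, 293.3 CPM in 129S6/SvEvTac AngII and 141.6 CPM in 129S6/SvEvTac control libraries. Myh4 was listed at 0 throughout and was not tested.

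Other genes of these pathways were counted list by list. Among all genes tested, 21.8% were called higher and 17.1% lower with AngII in C57BL/6J, and 7.71% higher and 4.47% lower in 129S6/SvEvTac, and each list is to be read beside these shares. Of 18 partners in the elastic fibre, 10 rose and 1 fell in C57BL/6J (median log2 fold change 0.40) and 9 rose and 1 fell in 129S6/SvEvTac (0.38). Eln, elastin itself, averaged 16020 ± 3905 CPM in C57BL/6J AngII and rose 3.48-fold, and averaged 11300 ± 1224 CPM in 129S6/SvEvTac AngII and rose 4.46-fold (SD, n = 4 each). Lox, which crosslinks elastin and collagen, rose 7.47-fold in C57BL/6J (adjusted p = 5.75e-07) and 4.05-fold in 129S6/SvEvTac (adjusted p = 1.46e-05). Fbln2, a fibulin that binds fibrillin, rose in both strains, with log2 fold changes of 1.76 in C57BL/6J and 1.07 in 129S6/SvEvTac, as did Bgn, the proteoglycan biglycan (0.42 in C57BL/6J and 0.92 in 129S6/SvEvTac). Emilin2 rose 3.25-fold in C57BL/6J (log2 fold change 0.53 in 129S6/SvEvTac, adjusted p = 0.192). Fbln5, the fibulin that ties LTBP-4 to elastin, rose 1.99-fold in 129S6/SvEvTac (log2 fold change 0.20 in C57BL/6J, adjusted p = 0.228).

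Several ADAMTS and ADAMTS-like proteins bind fibrillin and bear on microfibril assembly. Of 10 such genes, 3 rose and 2 fell in C57BL/6J (median -0.05), close to the shares over all genes, and 2 rose and 1 fell in 129S6/SvEvTac (median 0.04). Adamts17 rose 13.2-fold in C57BL/6J, where it averaged 5.47 ± 3.63 CPM with AngII, and 10.6-fold in 129S6/SvEvTac, where it averaged 2.27 ± 1.27 CPM with AngII. Adamtsl2, a binder of fibrillin 1 and LTBP-1, rose 2.29-fold in C57BL/6J and 6.14-fold in 129S6/SvEvTac. In C57BL/6J, Thsd4 fell by 0.95 ± 0.22 and Adamtsl5 fell by 0.59 ± 0.13 on the log2 scale, where their log2 fold changes in 129S6/SvEvTac were -0.25 and 0.15 (not called). In 129S6/SvEvTac Adamts6 fell by 0.97 ± 0.20, where its log2 fold change in C57BL/6J was -0.31 (not called).

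Of 5 genes for TGF-beta ligands and their membrane anchors, 4 rose in each strain (median 0.80 in C57BL/6J and 0.60 in 129S6/SvEvTac). Tgfb1 rose 1.74-fold in C57BL/6J and 1.36-fold in 129S6/SvEvTac. Tgfb2 rose 1.58-fold in C57BL/6J and 2.21-fold in 129S6/SvEvTac, and Tgfb3 rose 1.51-fold in 129S6/SvEvTac (log2 fold change 0.35 in C57BL/6J, adjusted p = 0.0703). Lrrc32, a membrane anchor of latent TGF-beta, rose 2.01-fold in C57BL/6J and 1.83-fold in 129S6/SvEvTac, and Nrros, the anchor of macrophages and microglia, rose 4.79-fold in C57BL/6J (log2 fold change 0.08 in 129S6/SvEvTac, adjusted p = 0.913). Of 14 tested activators and propeptide proteases, 9 rose and 2 fell in C57BL/6J (median 0.87), and 8 rose and 1 fell in 129S6/SvEvTac (median 0.44). Thbs1, which encodes a thrombospondin known to activate latent TGF-beta, rose in both strains, with log2 fold changes of 3.56 ± 0.45 in C57BL/6J and 3.87 ± 0.46 in 129S6/SvEvTac. The proteases Plau, Plat, Mmp2 and Bmp1 also rose in both. Plau rose 4.55-fold in C57BL/6J and 1.99-fold in 129S6/SvEvTac, and Plat 2.26-fold in C57BL/6J and 1.99-fold in 129S6/SvEvTac. The log2 fold change of Mmp2 was 1.88 in C57BL/6J and 0.83 in 129S6/SvEvTac, and that of Bmp1 was 1.29 in C57BL/6J and 0.95 in 129S6/SvEvTac. Mmp14, a membrane protease, rose 3.75-fold in C57BL/6J (log2 fold change 0.36 in 129S6/SvEvTac, adjusted p = 0.100). Itgb6 was below the filter and was not tested.

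Of 8 receptor and SMAD genes, 1 rose and 1 fell in C57BL/6J (median 0.10), and 1 rose and 2 fell in 129S6/SvEvTac (median -0.03). Eng, a co-receptor best known from endothelium, rose 1.34-fold in C57BL/6J and 1.54-fold in 129S6/SvEvTac. Tgfbr3, the co-receptor betaglycan, fell by 0.48 ± 0.15 in C57BL/6J and fell by 0.92 ± 0.15 in 129S6/SvEvTac on the log2 scale, and Smad3 fell by 0.62 ± 0.10 in 129S6/SvEvTac (log2 fold change -0.07 in C57BL/6J, not called). Of 13 TGF-beta target genes, 6 rose and 2 fell in C57BL/6J (median 0.27) and 7 rose and 1 fell in 129S6/SvEvTac (median 0.55). Col1a1 rose 7.87-fold in C57BL/6J and 3.66-fold in 129S6/SvEvTac, Col3a1 rose 6.47-fold in C57BL/6J and 3.35-fold in 129S6/SvEvTac, and Fn1, fibronectin, rose 2.66-fold in C57BL/6J and 3.28-fold in 129S6/SvEvTac. Ccn2 rose in both strains, with log2 fold changes of 1.44 ± 0.28 in C57BL/6J and 1.36 ± 0.28 in 129S6/SvEvTac. Tgfb1i1, also known as Hic-5, fell by 0.94 ± 0.11 on the log2 scale in C57BL/6J (log2 fold change 0.03 in 129S6/SvEvTac, not called). A call in 1 strain and not in the other does not by itself show that the strains differ. Among the genes of these lists named with such a call, the difference itself was called for Emilin2, Nrros, Mmp14 and Smad3 (higher effect in C57BL/6J). It was also called for Fbln5, Adamtsl5 and Tgfb1i1 (lower effect in C57BL/6J). It was not called for Thsd4 (edgeR's quasi-likelihood test, adjusted p = 0.159), Adamts6 (0.161) or Tgfb3 (0.492). Leaving the activators aside, of the genes named with a call in both strains it was called for Lox (higher effect in C57BL/6J). It was also called for Bgn and Adamtsl2 (lower effect). It was not called for the others, Col1a1 (same test, adjusted p = 0.0518) and Col3a1 (0.0508) included. The difference between the strains' effects was called higher in C57BL/6J for 3 of 18 elastic fibre, 0 of 10 ADAMTS, 1 of 5 ligand and anchor, 4 of 14 activator, 1 of 8 receptor and 0 of 13 target genes, against 5.34% of all genes. It was called lower for 2 of 18, 2 of 10, 0 of 5, 1 of 14, 0 of 8 and 1 of 13 genes of the same lists, against 4.62% of all genes. With so few genes in a list, these counts are given as a description.

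**Figure D4:**
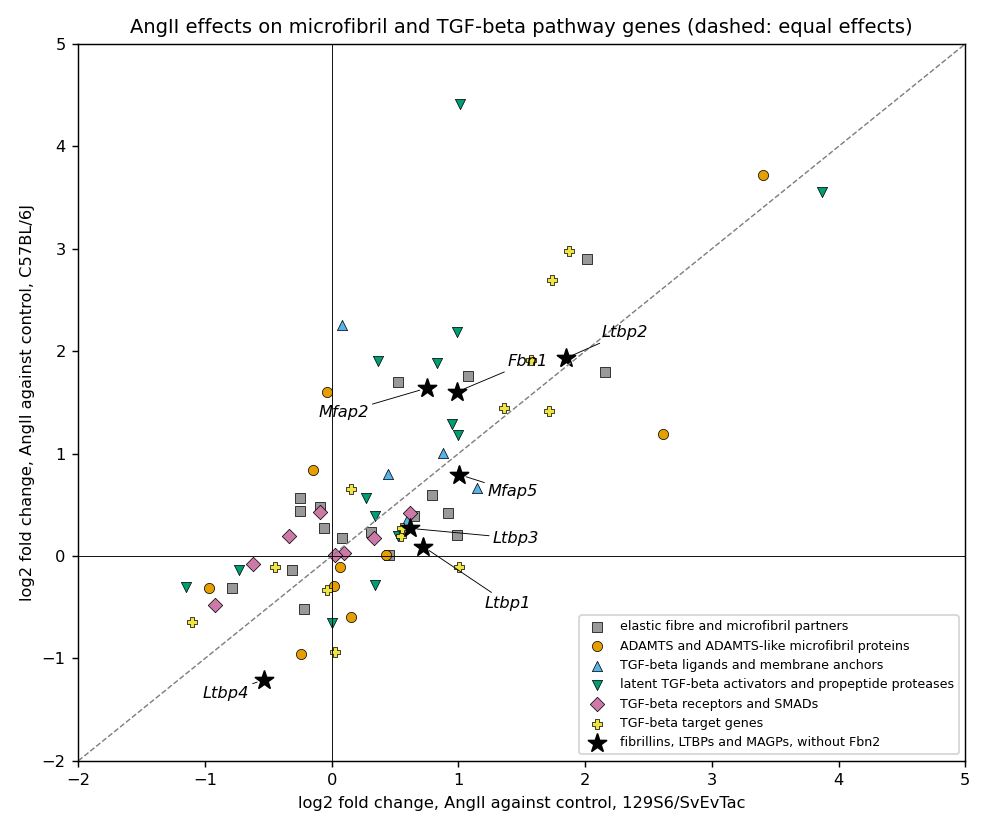
Log2 fold change with AngII in C57BL/6J (vertical) against that in 129S6/SvEvTac (horizontal) for the 7 family genes other than Fbn2 (stars) and the tested genes of 6 pathway lists; the dashed line marks equal effects. Ltbp2 (1.93 and 1.85) lies close to the line, Fbn1 and Mfap2 lie above it, and Ltbp1 (0.09 and 0.72) and Ltbp3 (0.27 and 0.62) lie below it; of these distances, that of Ltbp1 passed the test.

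The genes whose profiles lay closest to each family gene were read from 10522 protein-coding genes that averaged 5 CPM or more, as the root mean square difference of centred log2 CPM over the 16 libraries. Fbn1 was closest to Glipr2 (0.153), Col5a1 (0.165) and Nid1 (0.178), where Fbn1 itself varied by 0.740 around its mean. Ltbp2 was closest to Col1a2 (0.247), Col5a1 (0.271) and Ppic (0.292), and Mfap2 to Dpt (0.202), Fap (0.256) and Csf2ra (0.305). Col5a1, which encodes a fibrillar collagen, was thus among the 3 closest to both Fbn1 and Ltbp2. Ltbp4 was closest to Pkp4 (0.167), Flna (0.181) and Sel1l3 (0.182), Ltbp1 to Exoc6b (0.129), Pkd1 (0.130) and Fam214b (0.143), and Ltbp3 to Slit3 (0.134), Atg9a (0.136) and Fzd1 (0.140). The match was loosest for Fbn2, whose nearest genes were Cthrc1 (1.38), Has1 (1.48) and Ccl8 (1.54), with Fbn2 itself varying by 3.30, while Mfap5 was closest to Baiap2 (0.265), Tcn2 (0.267) and Svep1 (0.277).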

How the data were processed

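RNA from crushed whole descending thoracic aorta was purified on columns with DNase, and reads were aligned with HISAT2 to GRCm38 (mm10) and quantified with StringTie against Gencode, per the labels' protocols. The authors deposited expected counts per gene from this step (estimated counts, per the labels' protocols), already whole numbers. DESeq2 1.26.0 and R 3.6.2 are named, with no role, in the submitters' processing notes. The sources used here give neither the Gencode release, nor how counts were derived, nor the strandedness. Symbols and positions came from GENCODE M21 (GRCm38), which matched 52489 of 52636 genes.

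The test was edgeR 4.0.16 (R 4.3.3) after filterByExpr (minimum count 10), TMM scaling and a robust quasi-likelihood fit with 1 mean per group over 16 libraries, Benjamini-Hochberg adjusted over 17125 genes. The pipeline was tested on simulated data. Count ratios (1 added to each count) were compared by exact permutation tests. No 2 replicates agreed within sampling noise (lowest chi-square per degree of freedom 37.6). The family and the gene lists were chosen with earlier results of these data known. Named were all 8 family genes, up to 4 called genes by p per pathway list and AngII comparison, markers by list, and the 3 closest profiles per family gene. Some results are not reported here. Promoter windows came from RefSeq (GRCm38.p6), which had entries for 6 of the 8 genes, Fbn2 and Mfap5 having none in the table used. Alternatives were no filter, library size only, RLE scaling, 1 CPM in 4 libraries, DESeq2 1.42.0, limma voom (3.58.1), a replicate block, an adipocyte covariate, only the groups compared, 2 libraries left out together, each library left out, and 0.5 in place of 1 in ratios.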

Additional observations from a re-analysis of the deposited data

Results flagged for a closer look

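In 2 of 30 sets of 4 libraries (1 gene in 1 group), 1 library lay far from the other 3, where chance gives about 1 in 20. Both were 129S6/SvEvTac AngII replicate 1, with Fbn2 at 1.69 CPM, where the other 3 AngII libraries ran from 0 to 0.21 CPM, and Mfap5 at 459.6 CPM, where the others ran from 240.6 to 266.7 CPM. Among the ratios, C57BL/6J AngII replicate 3 had a log2 ratio of Ltbp2 to Ltbp4 of -1.28, below the other 3 AngII libraries, which were near 0, but above every C57BL/6J control, the highest of which was at -3.46. The AngII effect on Ltbp1 in C57BL/6J minus that in 129S6/SvEvTac was -0.63 on the log2 scale, a difference that passed the test of the interaction at an adjusted p of 0.0498 (edgeR's quasi-likelihood test).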

How the results depend on the processing

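For single genes, 908 of 980 values under other settings kept direction and call, 40 lost the call, 21 gained it and 11 turned sign. Family counts stayed within 1.5 times for AngII in C57BL/6J (5 to 7 without 1 library), AngII in 129S6/SvEvTac (5 to 6) and the strains with AngII (5 to 7). The difference of effects, 1 gene, became 0 with no filter, an adipocyte covariate or C57BL/6J AngII replicate 1 and 129S6/SvEvTac AngII replicate 5 left out, 2 with the 1 CPM filter or the replicate block, 3 with DESeq2, and 0 to 4 without 1 library. The strains in controls, 0 genes, became 1 with the adipocyte covariate (Fbn1, adjusted p = 0.0450) and 3 with only the groups compared. Ratio differences in C57BL/6J without 1 library were 6.44 to 7.11 for Fbn2 to Fbn1, -0.92 to -0.59 for Mfap5 to Mfap2 and 3.05 to 3.47 for Ltbp2 to Ltbp4, with adjusted exact p up to 0.0571, 0.214 and 0.0571. With all libraries the Fbn2 to Fbn1 difference was 6.83 in C57BL/6J (exact p = 0.0286) and 1.52 in 129S6/SvEvTac (exact p = 0.429), sizes set by the count added to the zeros. The exact p in C57BL/6J is no support either. Fbn2 was listed at 0 in every control there and passed the filter only through AngII libraries, so the separation was fixed beforehand. That p is also among the 6 ratio tests adjusted together. Paired by number, the C57BL/6J ratios (6.83, -0.76, 3.17) had an exact p of 0.125, the smallest that 4 pairs allow, and Ltbp2 to Ltbp4 in 129S6/SvEvTac (2.27, 3 pairs) one of 0.25.

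The sign turned only in results that were not called: Ltbp1 in C57BL/6J was -0.0043 with library size only and -0.0429 without C57BL/6J AngII replicate 3 (up to 0.1897 without another library). The difference of effects turned for Ltbp2 (-0.0248 with the adipocyte covariate, -0.0097 without C57BL/6J AngII replicate 5, up to 0.2202) and Mfap5 (0.0878 without 129S6/SvEvTac AngII replicate 1, down to -0.3469). The strains with AngII turned for Mfap5 (-0.0077 with both libraries left out, -0.0071 without C57BL/6J AngII replicate 5, up to 0.3902). The strains in controls turned for Ltbp1 (0.0584 with the replicate block, 0.0053 without C57BL/6J control replicate 2, down to -0.0424) and Ltbp3 (0.0021 with the block, 0.0007 without 129S6/SvEvTac control replicate 1, down to -0.0613). The causes were not tested. Library size only shifted the median of all genes to -0.16 in 129S6/SvEvTac and -0.08 in C57BL/6J. The labels do not say what a shared replicate number means. Deviations of same-numbered libraries correlated at -0.060 to 0.145, and those of differently numbered ones at -0.174 to 0.198. Replicate 1 was closest to its own number in both strains (0.145 in C57BL/6J and 0.111 in 129S6/SvEvTac), but not every library was. Whether the numbers mark pairs cannot be told from this. With the block, calls over all genes went to 6175 in C57BL/6J and 1426 in 129S6/SvEvTac.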

Other observations

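Fibrillins also bind growth factors of the BMP family, and a list of 12 such factors and their antagonists was read in the same fit. In C57BL/6J, 4 rose and 1 fell (median log2 fold change 0.79), and in 129S6/SvEvTac 2 rose and 1 fell (median 0.26), where 21.8% of all genes were called higher and 17.1% lower in C57BL/6J and 7.71% higher and 4.47% lower in 129S6/SvEvTac. Fst, which encodes follistatin, an antagonist of activins, rose 8.10-fold in C57BL/6J and 2.54-fold in 129S6/SvEvTac. Gdf11, a factor close to myostatin, rose 2.16-fold in C57BL/6J (log2 fold change 0.14 in 129S6/SvEvTac, not called), and Grem1, a BMP antagonist, rose 4.70-fold (-0.31 in 129S6/SvEvTac, not called). Bmp4 rose 2.02-fold in 129S6/SvEvTac (-0.14 in C57BL/6J, not called). For the difference between the strains' effects, 3 of the 12 had a higher and 2 a lower effect in C57BL/6J, against 5.34% and 4.62% of all genes. Gdf11 was among the higher and Bmp4 among the lower, and the difference of Grem1 was not called.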
